A study of Mus musculus with 4 samples.

Results

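The genes described here handle the uptake of fatty acids: the fatty acid binding proteins Fabp3, Fabp4 and Fabp5, lipoprotein lipase (Lpl), the receptors Cd36 and Vldlr, the acyl-CoA synthetase Acsl4 and the nuclear receptor Pparg. They were taken as the probe sets (groups of short DNA probes against a single transcript on an Affymetrix array) whose array annotation names exactly one of 9 genes. This gave 8 of 18193 measured genes, with 23 of 45037 probe sets, and the ninth, Acsl1, is not analysed here. The set was picked because Fabp5 and Lpl were low in both arrays of the cilia-deleted samples. Their difference between the groups is therefore described and not tested.

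Proliferative-zone chondrocytes, the dividing cartilage cells of the growth plate, were cut by needle from sections of the tibia and femur of mice at postnatal day 7. The Ift88-deleted group (2 arrays) came from Col2aCre;Ift88fl/fl mice, in which Cre driven by the collagen II promoter of cartilage removes Ift88, a gene needed to build the primary cilium. The control group (2 arrays) is labelled wild-type, and whether those mice carried floxed alleles or Cre is not given in the labels. All mice were of the C57BL/6 background, and their sex and any pooling of animals are not given in the sources used here. The study set chondrocytes that lack Ift88 against chondrocytes that have it.

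Ift88 itself had values of 0.22 and -0.07 in the Ift88-deleted arrays, against 0.07 and -0.08 in the control arrays (log2 values centred on that probe set's median). The groups overlapped, with a difference of 0.08 (SE 0.154). It was read by 1 probe set whose place relative to the deleted exons was not given, so it does not check the labels. The chondrocyte markers (10 genes, Col2a1, Acan and Sox9 among them) had a median difference of 0.04, and 0 of their 18 probe sets lay in the dimmest class of signal described below.

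Fatty acids reach a cell in lipoprotein particles or bound to albumin. Lipoprotein lipase, working outside the cell, frees them from triglycerides, and Vldlr binds and takes up triglyceride-rich particles. Cd36 helps fatty acids across the membrane, acyl-CoA synthetases trap them as acyl-CoA, and small fatty acid binding proteins carry them through the cytosol. PPAR nuclear receptors sense them and drive many genes of the same route, and cartilage, which has no blood vessels of its own, receives its lipids by diffusion.

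Promoter sequences are shown for the members with lower values in the Ift88-deleted arrays that the RefSeq promoter table (build GRCm38.p6) covers, Vldlr, Fabp3 and Cd36, a classical PPAR target. The table matched 5 of the 8 measured genes. It held no window for Fabp5, Lpl or Fabp4, so no motif was searched for in these genes. Each run is the 250 bases before a transcript start, 5′ to 3′. Capitals mark the motifs AGGTCA (the nuclear receptor core) and GGGCGG (the GC box) on either strand, and a run with no capitals held neither.
Vldlr, upstream start, chr19:27216234-27216483, plus strand: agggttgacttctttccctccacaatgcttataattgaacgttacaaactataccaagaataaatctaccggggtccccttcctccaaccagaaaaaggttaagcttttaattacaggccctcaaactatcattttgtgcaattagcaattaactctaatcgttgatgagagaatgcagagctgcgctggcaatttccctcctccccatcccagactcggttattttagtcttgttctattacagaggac
Vldlr, downstream start, chr19:27216770-27217019, plus strand: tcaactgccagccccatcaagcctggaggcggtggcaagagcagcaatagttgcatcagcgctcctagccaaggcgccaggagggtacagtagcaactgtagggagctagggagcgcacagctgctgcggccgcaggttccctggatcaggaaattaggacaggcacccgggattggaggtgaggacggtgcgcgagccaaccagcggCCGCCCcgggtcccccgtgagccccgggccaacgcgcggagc
Fabp3, chr4:130308488-130308737, plus strand: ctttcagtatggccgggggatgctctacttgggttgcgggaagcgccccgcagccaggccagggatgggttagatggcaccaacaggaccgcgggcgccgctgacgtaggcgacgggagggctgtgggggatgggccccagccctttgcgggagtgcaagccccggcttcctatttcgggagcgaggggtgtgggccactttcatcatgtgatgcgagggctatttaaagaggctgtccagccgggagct
Cd36, chr5:17835897-17836146, minus strand: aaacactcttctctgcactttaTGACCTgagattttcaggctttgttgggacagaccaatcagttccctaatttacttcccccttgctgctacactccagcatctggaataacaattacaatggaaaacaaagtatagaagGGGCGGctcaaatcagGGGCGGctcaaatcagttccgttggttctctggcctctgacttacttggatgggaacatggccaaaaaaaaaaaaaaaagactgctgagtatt
The nuclear receptor core stood in 3 of the 10 windows of the members (Acsl1 included), that of Cd36 and 2 of Pparg, and 14% of all 32851 windows of this length held it. The GC box was found in 6 of these 10, with at least 1 window each of Vldlr, Cd36, Pparg, Acsl4 and Acsl1, against 32.7% of all windows. The consensus of the Hedgehog factor GLI, TGGGTGGTC, was in 0 of the 10, and 0.225% of all windows held it. The hypoxia response core ACGTG was likewise in 0 of the 10 windows, against 16.6% of all. These are descriptions of the letters in the windows, and binding was not measured. No listed motif overlapped another in the printed windows.

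Values below are log2, relative to each probe set's own median over the 4 arrays, so a difference of 1 is a doubling, and levels cannot be compared between genes. With 4 arrays the median lies midway between the middle values, so those are mirror images around 0. A coarse class of the original level could be read from the numerical step of the values. Arrays of 1 group that do not overlap with those of the other are called apart. Across all genes, 33.3% had groups apart, 18.6% of genes lower and 14.7% higher in the Ift88-deleted arrays.

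Of the 8 members, 6 genes were lower with groups apart, 1 (Acsl4) was higher with groups apart and 1 (Pparg) overlapped. The median difference over the 8 genes was -0.23, against -0.01 over all 18193 genes. Among the probe sets 13 of 23 were lower with groups apart, where 17.4% of all probe sets were, and 1 was higher, where 16.2% were. Since Fabp5 and Lpl were picked for low values in this contrast, nothing is read from these counts. The differences ranged from -1.47 for Fabp5 to 0.18 for Acsl4.

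**Figure D1:**
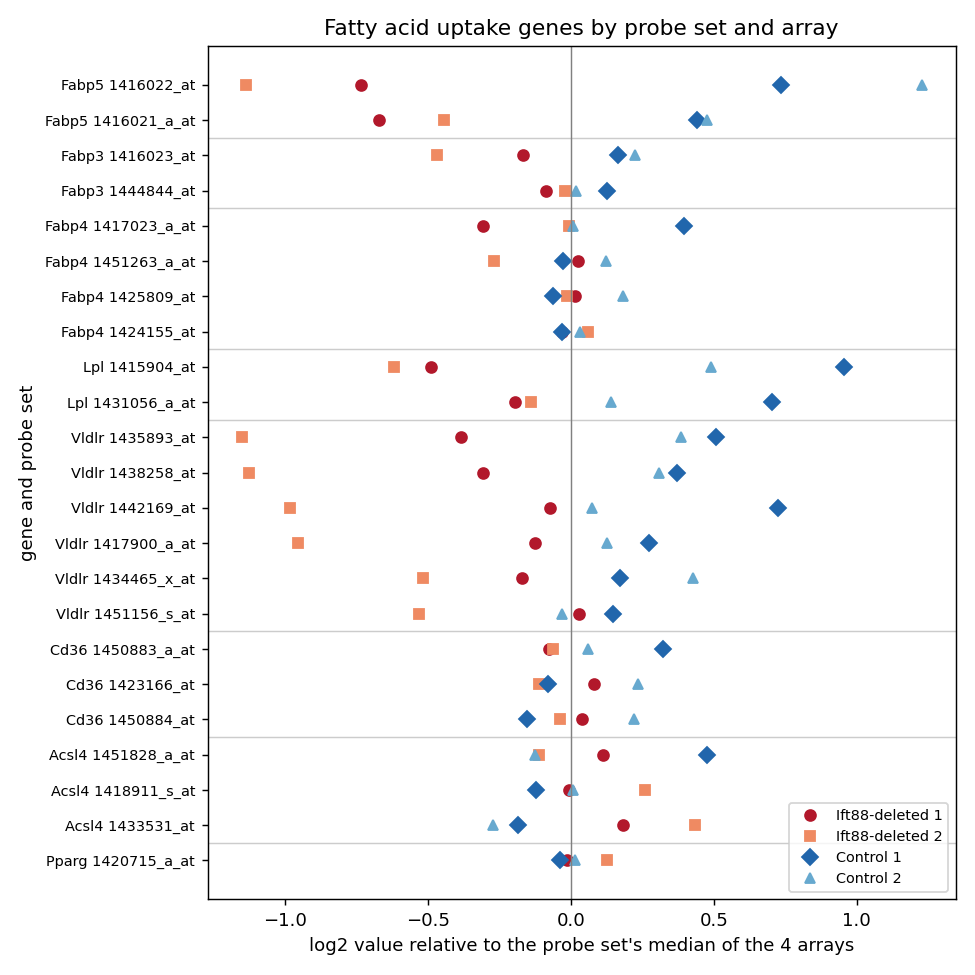
Values of the 23 probe sets (rows, grouped by gene) in each of the 4 arrays on a log2 scale relative to the probe set's median, with Ift88-deleted arrays in red and orange and control arrays in blue. Both Fabp5 and both Lpl probe sets have the Ift88-deleted arrays to the left of both control arrays, and the Cd36 and Pparg points lie close to 0.

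Fabp5, the epidermal-type fatty acid binding protein, which is also found in many other cells (chromosome 3, 10012585 to 10016610), had the largest difference of the members. As the mean of its 2 probe sets it stood at -0.70 and -0.79 in the Ift88-deleted arrays, against 0.59 and 0.85 in the control arrays. The groups lay apart, and the gap between them was wider than the gap within either group (0.09 between the Ift88-deleted arrays and 0.26 between the control arrays). The mean difference was -1.47 (SE 0.146, n = 2 per group), a level 2.76-fold lower, and 24 of the 18193 genes had a lower difference.

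The probe sets of Fabp5 differed in size and shared the direction. Probe set 1416022_at had -0.73 and -1.14 in the Ift88-deleted arrays, against 0.73 and 1.23 in the control arrays, a 3.77-fold lower level. Probe set 1416021_a_at had -0.67 and -0.44 in the Ift88-deleted arrays, against 0.44 and 0.47 in the control arrays, a 2.02-fold lower level. Probe set 1416021_a_at lay in the brightest class, with a lowest original value of 8 or more, and 1416022_at in the class from 4 to 8. In both probe sets the lowest control array was well above the highest Ift88-deleted array.

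Fabp3, the binding protein of heart and skeletal muscle (chromosome 4), had values of -0.13 and -0.24 in the Ift88-deleted arrays, against 0.15 and 0.12 in the control arrays. Its difference was -0.32 (SE 0.126), 1.25-fold lower, and 87.9% of all genes had a smaller absolute difference. Probe set 1416023_at carried most of it, 1.43-fold lower, while 1444844_at was 1.09-fold lower, each with groups apart. Fabp4, the adipocyte binding protein, differed by -0.14 (SE 0.122), and 3 of its 4 probe sets had groups that overlapped. Of those 4, 2 lay in the dimmest class, with a lowest original value of 2 to 4, as 16.5% of all probe sets did.

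Fabp5 and Fabp4 belong to a cluster of related genes on chromosome 3, and the neighbours were taken by position. Pmp2, a lipid binding protein of myelin, starts 167.3 kb from Fabp5 and Fabp9 181.0 kb from it. Fabp4 starts at 191.8 kb and Fabp12 at 231.6 kb. Pmp2 differed by 0.26 (SE 0.211), Fabp9 by 0.19 (SE 0.131) and Fabp12 by 0.02 (SE 0.166). Impa1, an inositol monophosphatase gene at 299.4 kb, differed by 0.06 (SE 0.123). By limma with Benjamini-Hochberg adjustment over all genes none of these 4 neighbours passed 0.05 (adjusted p = 0.956 for Pmp2, 0.942 for Fabp9, 1 for Fabp12 and 1 for Impa1). The differences between Fabp5 and each neighbour were not tested.

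**Figure D2:**
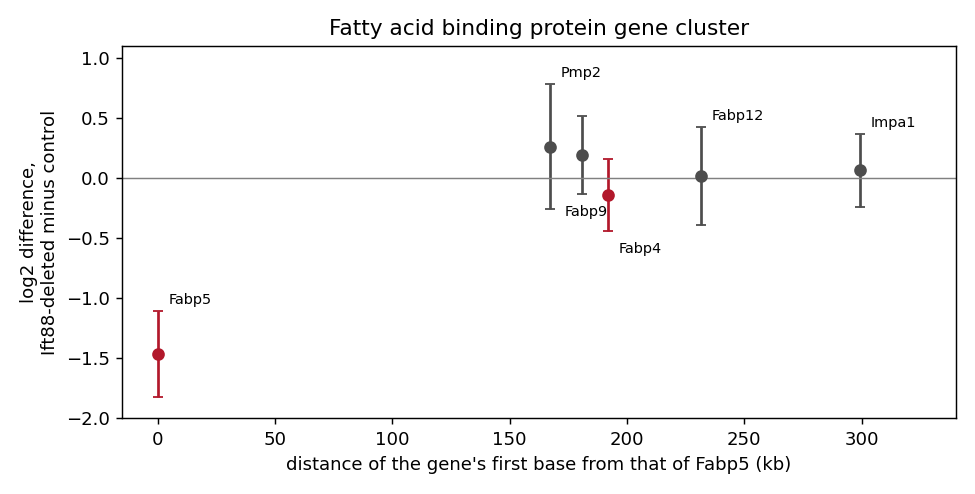
Log2 difference, Ift88-deleted minus control, of 6 genes against their distance in kb from the first base of Fabp5. Points are means over probe sets, bars 95% intervals of the fit (given for Fabp5 and Fabp4, in red, as a description). Fabp5 lies at -1.47 and the other 5 genes between -0.14 and 0.26.

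Lpl, the lipase that frees fatty acids from lipoprotein triglycerides (chromosome 8, 68880555 to 68906932), had the next largest difference. The mean of its 2 probe sets was -0.34 and -0.38 in the Ift88-deleted arrays, against 0.83 and 0.32 in the control arrays. Control 1 stood above Control 2 by 0.52, while the Ift88-deleted arrays were 0.04 apart, and the groups did not overlap. The difference was -0.93 (SE 0.194), 1.91-fold lower, and 88 genes had a lower one.

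Both Lpl probe sets had groups apart. Probe set 1415904_at, of the brightest class, had -0.49 and -0.62 in the Ift88-deleted arrays, against 0.96 and 0.49 in the control arrays, 2.42-fold lower. Probe set 1431056_a_at had -0.19 and -0.14 in the Ift88-deleted arrays, against 0.70 and 0.14 in the control arrays, 1.51-fold lower. In each of them Control 1 was the higher control array. In these bulk samples fewer cells that express a gene and less of its RNA per cell cannot be told apart, which holds for every gene here.

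Vldlr, the very low density lipoprotein receptor (chromosome 19, 27216480 to 27254231), is measured by 6 probe sets. Its mean was -0.17 and -0.88 in the Ift88-deleted arrays, against 0.37 and 0.22 in the control arrays. Ift88-deleted 2 was the lowest of the arrays in all 6 probe sets, and Ift88-deleted 1 lay closer to the controls. The difference was -0.82 (SE 0.243), 1.76-fold lower, and it was -0.46 without Ift88-deleted 2 and -1.17 without Ift88-deleted 1.

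The Vldlr probe sets ranged from 1.24-fold to 2.32-fold lower. The largest difference was that of 1435893_at, with -0.39 and -1.15 in the Ift88-deleted arrays, against 0.51 and 0.39 in the control arrays. The smallest was that of 1451156_s_at, with 0.03 and -0.53 in the Ift88-deleted arrays, against 0.15 and -0.03 in the control arrays. The groups overlapped in this probe set and were apart in the other 5.

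Cd36, the membrane receptor for long-chain fatty acids, was measured by 3 probe sets, all of the dimmest class. Its values were 0.01 and -0.07 in the Ift88-deleted arrays, against 0.03 and 0.17 in the control arrays. The difference was -0.13 (SE 0.131), or -0.20 without Control 1 and -0.06 without Control 2, and 2 of the 3 probe sets overlapped. At so low a signal a difference in this gene may not have been detectable.

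Acsl4, an acyl-CoA synthetase that prefers arachidonic acid, is on the X chromosome. Its values were 0.10 and 0.19 in the Ift88-deleted arrays, against 0.06 and -0.13 in the control arrays, a difference of 0.18 (SE 0.136). Without Control 2 it was 0.09, and without Control 1 it was 0.28. Its 3 probe sets disagreed: 1433531_at was 1.45-fold higher with groups apart, 1418911_s_at was 1.14-fold higher with overlap, and 1451828_a_at was 1.13-fold lower with overlap. The sex-linked Xist was lower by a log2 difference of -7.36 and Eif2s3y higher by 3.34 in the Ift88-deleted arrays, and each separated the arrays exactly as the genotype did. For this X-linked gene, and for all others here, sex and genotype cannot be told apart.

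Pparg, the nuclear receptor that drives Fabp4, Cd36 and Lpl in fat cells, had a single probe set. Its values were -0.01 and 0.12 in the Ift88-deleted arrays, against -0.04 and 0.01 in the control arrays. The groups overlapped, and the difference was 0.07 (SE 0.129).

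**Figure D3:**
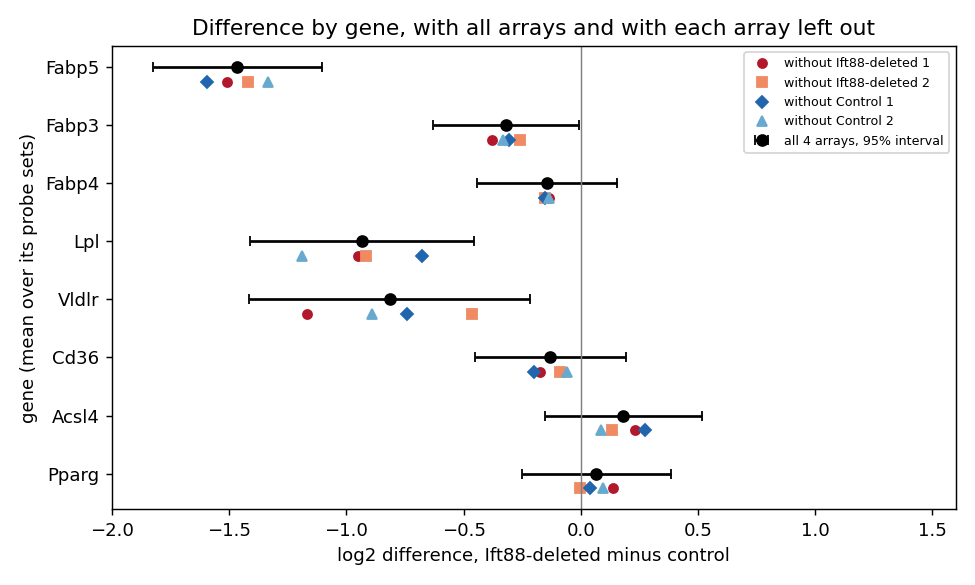
Log2 difference, Ift88-deleted minus control, of the 8 genes (black points, with the fit's 95% interval as a description) and the same difference with each array left out (coloured marks below). The Fabp5 marks lie between -1.60 and -1.33 and those of Lpl between -1.19 and -0.68, while those of Vldlr spread from -1.17 to -0.46.

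Ordered by difference, Fabp5 came lowest, followed by Lpl, Vldlr, Fabp3, Fabp4, Cd36, Pparg and Acsl4. Lpl and Vldlr lay 0.12 apart, less than the SE of either, and Fabp4 and Cd36 lay 0.014 apart, likewise less than the SE of either. The gap between the control arrays was 0.52 for Lpl and at most 0.26 in the other 7 genes. That between the Ift88-deleted arrays was 0.70 for Vldlr and at most 0.14 in the other 7.

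The genes whose values over the 4 arrays came nearest to those of Fabp5, by Euclidean distance on the log2 scale, were Plppr4 (0.332), Ctsz (0.336), Prelp (0.357), Phlda2 (0.366) and Fxyd2 (0.366). The nearest member to Fabp5 was Lpl, at 0.802. Nearest to Lpl were Atp5e (0.067), Plekhb1 (0.120), Gdap10 (0.144), Acyp1 (0.148) and Psat1 (0.158), and the nearest member was Vldlr at 0.708. All 5 genes nearest to Lpl had Control 1 above Control 2, by 0.37 to 0.59. This follows from choosing them by their nearness to Lpl. With 4 arrays this likeness is a description only.

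The wider lipid genes were read from 8 lists of genes, 134 in all, of which 119 were measured. By limma with Benjamini-Hochberg adjustment over all genes, 0 of the 119 passed 0.05, and 2 of 18193 genes did (0.011%). By probe set, 20 of 45037 passed (0.0444%). At an unadjusted p under 0.05 there were 12 of the 119 (10.1%), against 5.96% of all genes. The groups were apart in 31 genes lower and 14 higher, 26.1% and 11.8% of the 119. Of all genes, 18.6% were apart lower and 14.7% apart higher. The median difference was -0.04. The smallest adjusted p by limma was that of Fabp7 (0.410). Below, the 2 genes with the largest differences among those with groups apart are named from each list. That their groups are apart is therefore no result.

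Among the other lipid binding proteins (12 of 13 measured, 3 at an unadjusted p under 0.05, 2 lower and 1 higher, median difference -0.02) the named genes were Fabp7 and Rbp4. Fabp7, the brain-type fatty acid binding protein, had 0.35 and 0.44 in the Ift88-deleted arrays, against -0.35 and -0.85 in the control arrays. Its difference of 0.99 (SE 0.191, adjusted p = 0.410 by limma) ran opposite to that of Fabp5, and the groups were apart. Rbp4, the retinol carrier of plasma, is secreted and stood on this otherwise intracellular list. It had -0.49 and -0.25 in the Ift88-deleted arrays, against 0.25 and 1.74 in the control arrays. Its difference was -1.36 (SE 0.459, adjusted p = 0.812 by limma), which was -0.62 without Control 2 and -2.11 without Control 1.

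Of the genes of fatty acid transport and activation 16 of 17 were measured (1 at an unadjusted p under 0.05, median difference -0.08). Slc27a2, an acyl-CoA synthetase and transporter, differed by 0.43 (SE 0.142, adjusted p = 0.812 by limma). Slc27a5, the bile acid and fatty acyl-CoA synthetase of liver, differed by -0.23 (SE 0.125, adjusted p = 0.903). Both had groups apart, as the choice of named genes required. The list median was -0.0004 without Control 1 and -0.12 without Ift88-deleted 2.

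Lipoprotein lipase partners and lipoprotein receptors (15 of 20 measured, 1 at an unadjusted p under 0.05) had a median difference of -0.10, or -0.06 without Ift88-deleted 2. Apoe, the apolipoprotein that Vldlr and related receptors bind, had -0.07 and -0.39 in the Ift88-deleted arrays, against 0.53 and 0.07 in the control arrays (difference -0.53, SE 0.203, adjusted p = 0.820 by limma). It was at -0.30 without Control 1. Lipg, endothelial lipase, differed by 0.28 (SE 0.170, adjusted p = 0.923), by 0.11 without Control 1, by 0.18 without Ift88-deleted 1 and by 0.45 without Control 2. Gpihbp1, which anchors lipoprotein lipase to capillary walls, was at 0.15 (SE 0.252), and its inhibitor Angptl4 at 0.03 (SE 0.124), both named for their role after the values were seen.

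PPAR and RXR receptors and partners (14 of 17 measured) had a median difference of 0.07, and 0 of them had an unadjusted p under 0.05 by limma. Cebpa, a factor of fat cell differentiation, differed by 0.30 (SE 0.146, adjusted p = 0.881) and Ncoa1, a nuclear receptor coactivator, by 0.28 (SE 0.126, adjusted p = 0.869). Cebpa was at 0.17 without Control 1, and the list median was then -0.02.

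PPAR target genes (12 of 16 measured, 2 at an unadjusted p under 0.05, 1 in each direction) had a median difference of -0.07, or -0.02 without Ift88-deleted 1 and -0.11 without Control 1. Plin2, the coat protein of lipid droplets and a member of the droplet list as well, had 0.51 and 0.25 in the Ift88-deleted arrays, against -0.34 and -0.25 in the control arrays. Its difference of 0.67 (SE 0.147, adjusted p = 0.503 by limma) was a 1.59-fold higher level with groups apart. Acadm, the medium-chain acyl-CoA dehydrogenase, differed by -0.44 (SE 0.158, adjusted p = 0.818), and by -0.27 without Control 1.

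Mitochondrial fatty acid oxidation genes (19 of 20 measured) had the lowest list median, -0.15, with 14 of 19 below 0. Of all 18193 genes, 9435 lay below 0. By limma 4 of the list had an unadjusted p under 0.05, 3 lower and 1 higher, against 5.96% of all genes. Etfb, the electron carrier that takes electrons from the acyl-CoA dehydrogenases, had -0.26 and -0.31 in the Ift88-deleted arrays, against 0.60 and 0.26 in the control arrays. Its difference was -0.71 (SE 0.157, adjusted p = 0.503 by limma). Decr1, a reductase needed for unsaturated fatty acids, differed by -0.60 (SE 0.184, adjusted p = 0.751), and by -0.38 without Control 1. The list median by array was 0.03 and -0.13 in the Ift88-deleted arrays, against 0.20 and -0.03 in the control arrays, so Control 1 alone stood high. Without Control 1 the median difference was -0.05, without Ift88-deleted 2 it was -0.03, and without Control 2 it was -0.24.

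Triglyceride storage and droplet genes (20 of 21 measured) had a median difference of -0.0008, or -0.09 without Control 1. Besides Plin2, Agpat2, an acyltransferase of triglyceride synthesis, differed by -0.35 (SE 0.143, adjusted p = 0.830 by limma), and by -0.23 without Ift88-deleted 2. These were the 2 genes of the list at an unadjusted p under 0.05. Fatty acid synthesis and desaturation genes (16 of 16 measured, 1 at an unadjusted p under 0.05) had a median of -0.004. With 1 array left out it ran from -0.06 to 0.02, and it was -0.13 by the probe set of widest range. Srebf1, the factor that drives lipogenic genes, differed by -0.45 (SE 0.181, adjusted p = 0.830), and by -0.26 without Ift88-deleted 2. Me1, malic enzyme, differed by -0.37 (SE 0.153, adjusted p = 0.830).

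**Figure D4:**
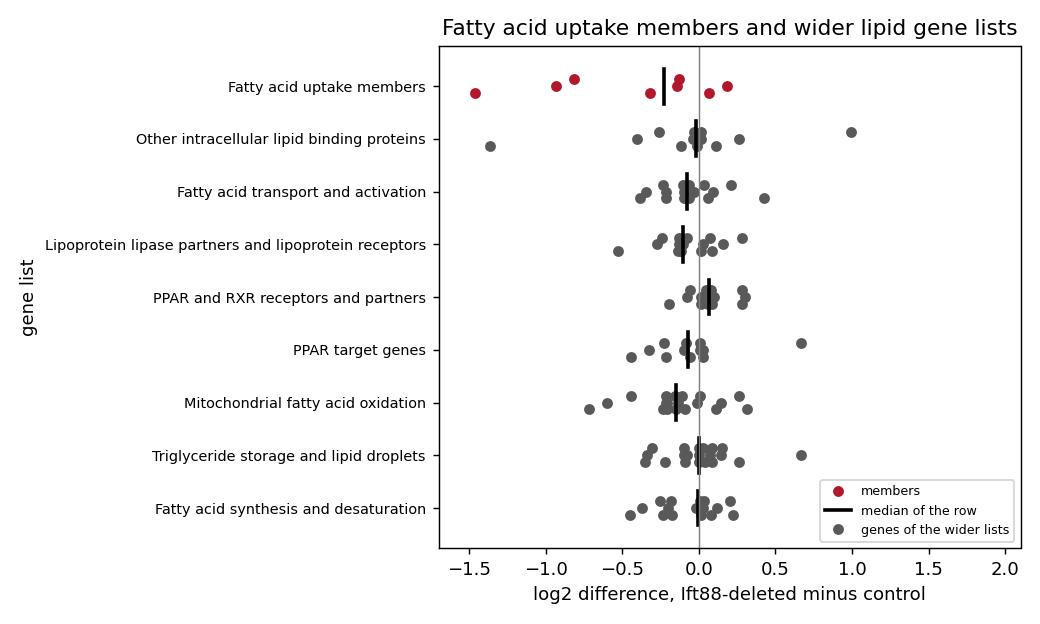
Log2 difference, Ift88-deleted minus control, of the 8 members (red, top row) and of the genes of the 8 wider lipid lists (grey), 1 point a gene, with black bars at each row's median. The medians of the wider lists lie between -0.15 and 0.07 and that of the members at -0.23. The members include Fabp5 and Lpl, picked for low values in this contrast, so their median is not comparable with the others.

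Markers of other cells were read beside these genes. Adipocytes, macrophages, endothelium and muscle also use the members. The 7 adipocyte markers measured had medians of -0.03 and -0.03 in the Ift88-deleted arrays, against -0.06 and 0.06 in the control arrays. Of these markers, 4 lay below 0 and 2 had groups apart, where 33.3% of all genes had groups apart. In the dimmest class lay 4 of their 11 probe sets, against 16.5% of all probe sets. Car3 differed by -0.47 (SE 0.214), Adipoq, the adipocyte hormone, by -0.23 (SE 0.139), and Slc2a4 and Cidec by -0.10 each. Retn (0.08), Adig (0.05) and Lep (0.03) went the other way.

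All 12 skeletal muscle markers had a difference below 0, with a median difference of -0.26, and 9435 of all 18193 genes lay below 0. The groups were apart in 4 markers, all lower, where 18.6% of all genes were apart lower and 14.7% apart higher. Their median was -0.06 and -0.05 in the Ift88-deleted arrays, against -0.03 and 0.31 in the control arrays. At an unadjusted p under 0.05 by limma there were 3 of them, against 5.96% of all genes. All 3 were lower, and high in both control arrays. Tnni2, fast skeletal troponin I, had -0.86 and -1.14 in the Ift88-deleted arrays, against 1.05 and 0.88 in the control arrays (difference -1.96). Tnnc2, fast skeletal troponin C, had -0.63 and -0.50 in the Ift88-deleted arrays, against 0.52 and 0.50 in the control arrays (difference -1.08). Mylpf, a fast muscle myosin light chain, had -0.38 and -0.56 in the Ift88-deleted arrays, against 0.77 and 0.38 in the control arrays (difference -1.05). Tnni2, Tnnc2 and Mylpf were lower with groups apart, where 18.6% of all genes were. They were named for their unadjusted p, so their groups being apart adds nothing to it. The groups overlapped in 8 of the 12 muscle markers, among them Mb (-0.002), Des (-0.05) and Myh4 (-0.06). The marrow and blood markers (-0.26 and 0.20 in the Ift88-deleted arrays, against -0.29 and 0.74 in the control arrays) and the macrophage and osteoclast markers (0.09 and -0.06 in the Ift88-deleted arrays, against -0.36 and 0.23 in the control arrays) were also highest in Control 2. Fabp5 was higher in Control 2 and Lpl and Vldlr in Control 1. Fabp5 differed by -1.33 without Control 2 and Lpl by -0.68 without Control 1.

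The other marker lists had median differences of 0.08 (hypertrophic chondrocyte, 5 genes), 0.06 (articular surface and resting zone, 9 genes), 0.06 (endothelial, 10 genes), 0.09 (osteoblast, perichondrium and fibroblast, 8 genes) and -0.11 (keratinocyte, 7 genes). Single arrays stood far apart in some of these lists. The hypertrophic median was 0.68 and -0.46 in the Ift88-deleted arrays, against -0.17 and 0.17 in the control arrays. The osteoblast, perichondrium and fibroblast median was 0.39 and -0.58 in the Ift88-deleted arrays, against -0.21 and 0.15 in the control arrays. Ift88-deleted 2, the lowest array in both, was also the lowest for the means of Vldlr, Fabp5, Lpl, Fabp3 and Cd36. For Fabp4 it was Ift88-deleted 1 (-0.07, against -0.06 in Ift88-deleted 2). Single probe sets disagreed. Ift88-deleted 1 was the lowest in 1416021_a_at (Fabp5), 1431056_a_at (Lpl), 1444844_at (Fabp3) and 1450883_a_at (Cd36). Ift88-deleted 1, the highest array in both lists, lay below both control arrays for all of these members. That follows from their groups being apart and lower, so nothing about marker cells is read from it. Prg4, the lubricin of the joint surface, was at 7.52 in Control 2 and between -0.19 and 0.01 in the other 3 arrays. The macrophage and osteoclast list (12 genes) was at 0.003 and marrow and blood (7 genes) at -0.26. Of the 87 marker genes 0 passed 0.05 over all genes by limma, and 9 had an unadjusted p under 0.05, against 5.96% of all genes. The 3′ minus 5′ difference of the Actb control probe sets was -0.10 and -0.14 in the Ift88-deleted arrays, against 0.10 and -0.05 in the control arrays. That of Gapdh was -0.07 and -0.40 in the Ift88-deleted arrays, against -0.18 and 0.07 in the control arrays. Between arrays such a difference is a sign of RNA length. Each probe set was centred on its own median, so the values give no RNA length for any single array. The part of marker cells or RNA quality in the members' values was not tested.

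**Figure D5:**
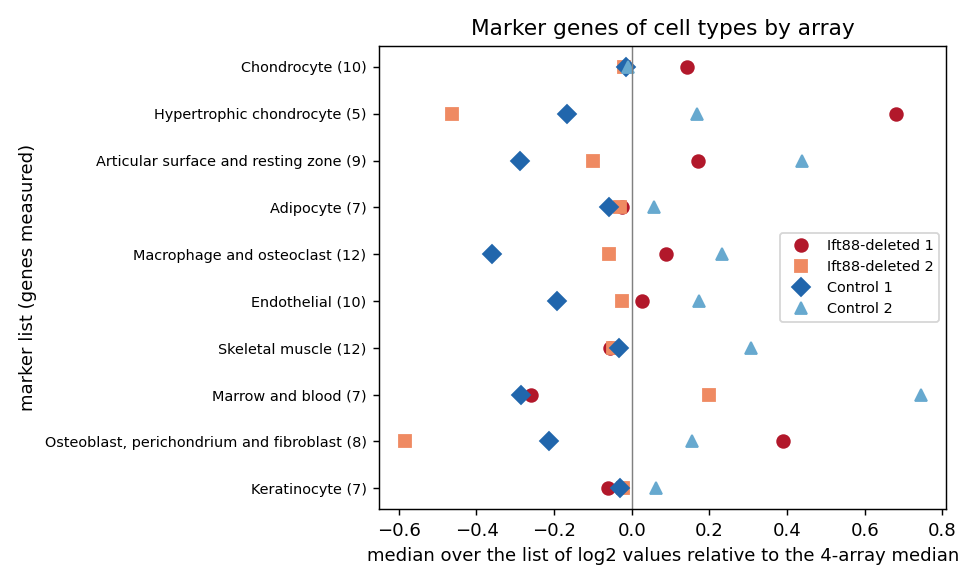
Median over each list of marker genes, on the log2 scale relative to the 4-array median of each probe set, in the Ift88-deleted arrays (red, orange) and the control arrays (blue). Marrow and blood markers reach 0.74 and skeletal muscle markers 0.31 in Control 2, and the adipocyte medians stay between -0.06 and 0.06.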

How the data were processed

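Expression was measured on 4 Affymetrix mouse arrays from 50 ng of total RNA each, amplified in a pair of cycles per the labels' protocols. The authors deposited log2 values. They used RMA (no version given) per the submitters' processing notes. Over the 4 arrays every one of the 45101 medians was 0 within 5e-07, so each probe set's median had been subtracted. The log base was inferred from the numerical step of the values, which is that of numbers from 2 to 16. The level class comes from the same step, and 21.9% of the brightest class also lay on the next coarser step.

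After 64 control probe sets were set aside, 34945 of 45037 named 1 gene, 932 several and 9160 none. Probe sets naming the same single gene were averaged (18193 genes). Symbols followed RefSeq GRCm38.p6 (34741 matched). Groups were compared with limma 3.58.1 (R 4.3.3), lmFit and eBayes without trend, 2 residual and 3.83 prior degrees of freedom, with Benjamini-Hochberg adjustment over all genes at 0.05. With 2 arrays a group, the number of arrays limits the precision. The design names biological replicates. The fit was run on simulated data drawn from its own variance model, which checks the code and not the calls made here.

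The members and lists were chosen with earlier results of these data known. Named were all members, any gene of a wider list past 0.05 (there was none), the 2 largest differences with groups apart in each wider list, and the 5 genes nearest to Fabp5 and to Lpl without predicted genes. Alternatives were quantile normalization, array medians subtracted, no moderation, a threshold of 0.1, X and Y or dim probe sets left out, the probe set of widest range, single probe sets, the replicate number as a block, and leaving out each array.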

Additional observations from a re-analysis of the deposited data

How the results depend on the processing

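By gene 2 were called. There were 11 at an adjusted p under 0.1, 5 after renewed quantile normalization, 9 with the probe set of widest range, 1 without moderation and 0 with X and Y left out (limma, 1052 at an unadjusted p under 0.05). Leaving out 1 array gave 2 to 56 genes, with 56 without Ift88-deleted 1 and 38 without Ift88-deleted 2. By probe set 20 were called (0.0444% of all), with 2 without moderation, 5 with X and Y left out, 3 without the dimmest probe sets and 9 to 12 with 1 array left out. With the replicate block 1 gene and 5 probe sets were called. The replicate numbers are not said to pair animals, the deviations of same-numbered arrays correlated at 0.139 over genes, and the block left the differences as they were. Fabp5 stood at -1.92 and Lpl at -1.28 by their probe set of widest range, and by single probe sets Fabp5 was at -1.92 and -1.01 and Lpl at -1.28 and -0.59. Leaving out 1 array gave -1.60 to -1.33 for Fabp5 and -1.19 to -0.68 for Lpl. Of the members' values under other settings, 23 moved by more than the SD between replicates, all of them by a choice of probe sets. With 2 arrays a group, leaving out 1 array cannot move a difference by more than that SD. Pparg turned to -0.002 without Ift88-deleted 2. Of the list medians 16 moved by more than the SD of the list's own medians. No gene of the wider lists was called under any of the 11 settings tried at 0.05 with limma.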
